A study of Zeugodacus cucurbitae with 52 samples.

Results

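Late metamorphosis in the melon fly Zeugodacus cucurbitae, a pest of cucurbit fruit, was followed here by comparing the transcriptome of 9-d-old pupae with that of 5-d-old pupae. The comparison held 8 of the 52 libraries of a developmental series, 4 libraries of each age, chosen by the age in their labels and by no measured value. It covered all 18241 genes of the deposited table, of which 17097 passed a filter of more than 0.1 TPM, a transcript's length-corrected share of its library, in at least 4 of the 52 libraries and were tested. Each library was made from RNA of whole bodies, pooled from 3 pupae of unstated sex, from a laboratory colony of field origin kept on an artificial diet. The labels name the 5-d-old stage the middle pupa and the 9-d-old stage the late pupa, neither group was treated, and the replicates are labelled as biological. The other 44 libraries covered eggs, 3 larval instars, 1-d-old pupae and adults of both sexes. They entered the filter, the shared estimate of spread, an alternative scaling and the levels quoted for other stages. The 1-d-old adults also gave the lists of genes that differ between the sexes.

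In the puparium of a higher fly, the larval tissues are broken down and the adult body is built from imaginal cells. Pulses of the steroid 20-hydroxyecdysone time the process through a cascade of nuclear receptors and early response genes, and the fall of the hormone late in the pupa releases cuticle tanning and eclosion. The epidermis first lays down the outer adult cuticle with its bristles and hairs and later the inner layers, while flight muscle, eyes and antennae mature in the same days.

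A gene is said below to have risen or fallen where limma gave it a Benjamini-Hochberg adjusted P under 0.05 and a log2 fold change, on the log2(TPM + 1) scale, above 2 or below -2. Fold changes are 9-d-old minus 5-d-old and are printed with their standard error. The added 1 TPM makes this scale understate the change of genes with low levels. The deposited TPM values keep no sequencing depth, so no counting error was computed from them. The error used for each gene is the spread between libraries of the same stage, estimated jointly over the 52 libraries of all stages. It is not the spread among the 4 libraries of each age alone. In whole-body RNA, a change in the number of cells of a type and a change in RNA per cell cannot be told apart.

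Replicate 2 of the 5-d-old pupae and replicate 4 of the 9-d-old pupae stood apart from the others of their age, both in the level of genes that are higher in adult males and the former also in antimicrobial peptide genes, and results that rest on them are given with and without them. The mapped share of reads that the study lists was lowest of the 8 in replicate 2 of the 5-d-old pupae and was lower in every 9-d-old library than in the other 5-d-old ones, and its part in the results was not tested. Pearson correlations of log2(TPM + 1) over all genes were 0.949 to 0.967 among the 9-d-old libraries, 0.918 to 0.966 among the 5-d-old ones and 0.784 to 0.854 between the ages. Without replicate 2 of the 5-d-old pupae, the range within that age was 0.962 to 0.966. Genes above 0.1 TPM numbered 14488 ± 291 (SD) in 5-d-old and 14576 ± 84.9 in 9-d-old libraries, and an exact two-sided permutation test of the 4 against 4 libraries gave P = 0.8. The median gene stood at 3.89 ± 0.49 TPM in 5-d-old and 3.96 ± 0.23 TPM in 9-d-old libraries (exact permutation P = 0.857). Both differences changed sign without replicate 2 of the 5-d-old pupae, to -55.4 genes and -0.158 TPM. The 10 most abundant genes held 16.2 ± 0.60% of all TPM at 5 d and 19.6 ± 0.90% at 9 d, with no overlap between the groups (exact permutation P = 0.0286, the smallest value that 4 against 4 libraries allow).

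In all, 1208 genes passed both thresholds, 7.07% of those tested, of which 722 rose (4.22%) and 486 fell (2.84%). The libraries of both ages did not overlap for 698 of the risen and 463 of the fallen genes, where 18.9% of all tested genes were without overlap and higher at 9 d and 24.3% without overlap and lower. At an adjusted P under 0.05 with any fold change, 25.0% of genes were higher and 28.1% lower. Over all tested genes the median log2 fold change was -0.01. Of the risen genes 182 carried a product name without a function and 56 were newly assembled genes with no product, and of the fallen ones 158 and 52. With a pseudocount of 0.1 TPM instead of 1, the counts were 1233 higher and 944 lower.

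**Figure D1:**
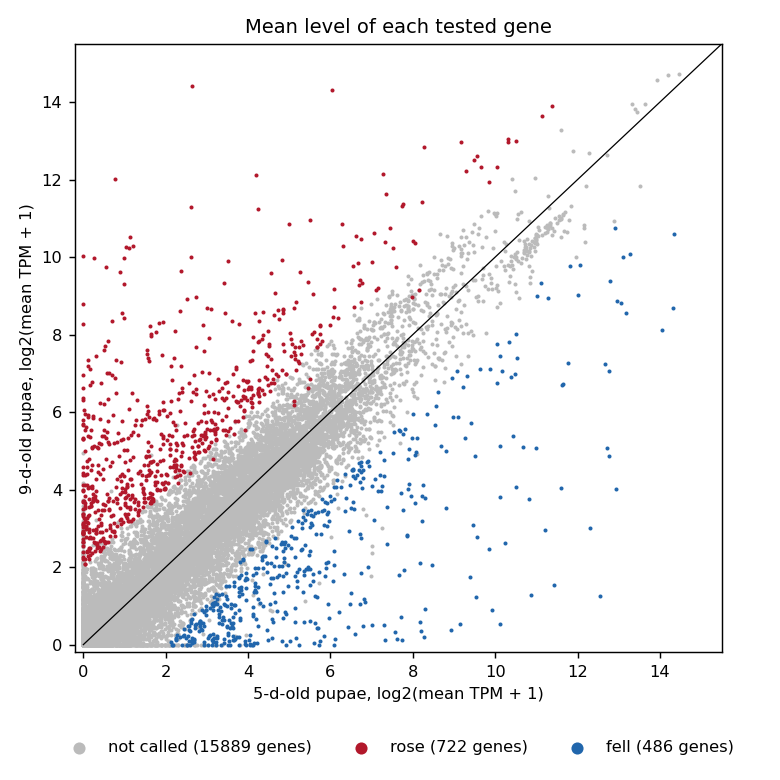
Mean level of each of the 17097 tested genes in 5-d-old pupae (horizontal axis) and 9-d-old pupae (vertical axis), as log2(mean TPM + 1) over 4 libraries each; the line marks equal levels. The 722 genes that rose lie above the line and the 486 that fell below it, and several of the most abundant genes of each age belong to them.

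Structural proteins of the cuticle were among the genes with the largest changes in both directions, some abundant at 5 d and nearly gone at 9 d and others the reverse. Insect cuticle is chitin bound to large families of small secreted proteins, which differ between body regions and between the layers laid down at different times. Among 83 cuticle proteins not named for a larval or pupal cuticle, 17 rose and 22 fell, against 4.22% and 2.84% of all genes tested. The list's median log2 fold change was 0.00 against -0.01 over all genes tested. Their summed level was 11.0 to 12.7% of all TPM at 5 d and 2.23 to 2.39% at 9 d. Cuticle protein 8 (gene1535), among the 3 most abundant genes of 5-d-old pupae, stood at 20089.5, 20158, 20797 and 21032 TPM in replicates 1 to 4 at 5 d. At 9 d it stood at 388, 413, 478 and 356 TPM (log2 fold change -5.65 ± 0.41, adjusted P = 1.22e-15). The groups were far apart and the libraries of each age close together, and the gene was at 5.44 TPM in 1-d-old pupae. Cuticle protein 16.5, isoform A (gene8029), the other cuticle gene among those 3, went from 19734, 22034, 20527 and 20779.7 TPM to 1634, 1385, 1724 and 1405 TPM (log2 fold change -3.76 ± 0.37, adjusted P = 8.53e-12).

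Other fallen cuticle genes left almost no transcript at 9 d. Pro-resilin (gene6866), whose product forms the elastic cuticle of wing hinges and tendons, had 1123, 1211, 1166 and 1349 TPM at 5 d and 2.27, 3.02, 7.04 and 8.29 TPM at 9 d (log2 fold change -7.76 ± 0.25, adjusted P = 9.96e-28). Adult-specific cuticular protein ACP-20 (gene1537) had 1303, 1112, 1034 and 1016 TPM and 0.62, 0.06, 0.63 and 0.44 TPM (log2 fold change -9.62 ± 0.50, adjusted P = 1.57e-20). All 4 libraries of each age lay on their own side by more than 100-fold in both genes. A cuticle protein with no further name (gene10439) fell from 9836 ± 1029.9 to 1081 ± 54.6 TPM (log2 fold change -3.18, adjusted P = 6.74e-14). Adult cuticle protein 1-like gene11478 fell from 8764 ± 1155 to 1030.4 ± 57.5 TPM (log2 fold change -3.08, adjusted P = 1.75e-06) and stood at 16129 TPM in females of 1 d and 17452 TPM in males, so the 9-d-old pupa was a low point between higher levels. Of the 486 fallen genes, 94 stood above 4 times their 9-d-old mean in 1-d-old adults of at least 1 sex.

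Several of the largest falls carried product names borrowed from unrelated proteins, and the names say little about their role in the fly. Keratin-associated protein 19-2 (gene8028) had 5819, 6019, 6067 and 5932 TPM at 5 d and 2.42, 0.83, 1.25 and 0.96 TPM at 9 d (log2 fold change -11.34 ± 0.25, adjusted P = 3.61e-34). This was the largest fall of all genes tested, and the 4 libraries of each age were close together. The gene called mantle protein (gene5252) fell from 2739 ± 115 to 1.91 ± 0.768 TPM, zinc finger protein 512B-like (gene13678) from 6959.5 ± 365 to 28.0 ± 1.23 TPM and the proline-rich extensin-like protein EPR1 (gene10576) from 2378 ± 75.4 to 6.71 ± 2.61 TPM. Their log2 fold changes were -9.92, -7.90 and -8.34, with adjusted P of 1.89e-17, 1.07e-13 and 8.19e-12. Putative defense protein 3 (gene5115), A-kinase anchor protein 14-like (gene8009), pinin (gene5671) and histidine-rich glycoprotein (gene11801) completed the 10 largest falls of genes with an informative product, with log2 fold changes of -9.03, -8.09, -7.84 and -7.82 and means at 9 d of 0.845, 0.147, 0.27 and 2.37 TPM. In 1-d-old pupae these 4 stood at 0.537, 6.92, 0.29 and 0.085 TPM, so that each was high at 5 d and low at the ages on both sides. Over all fallen genes, 295 of 486 stood below 0.25 of their 5-d-old mean in 1-d-old pupae.

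The cuticle genes with the largest rises were close to absent at 5 d. Cuticle protein 16.5, isoform A-like gene530 was at 3.21, 1.51, 0.47 and 0 TPM at 5 d and at 1166, 1220.5, 1619.7 and 961 TPM at 9 d (log2 fold change 9.26 ± 0.53, adjusted P = 5.47e-19). Its copies gene531 and gene529 had means of 0.99 and 0.845 TPM at 5 d and 1006 and 785 TPM at 9 d, with log2 fold changes of 9.23 and 8.77 (adjusted P = 4.67e-17 and 4.56e-17). In 1-d-old adults all 3 copies were below 2 TPM in both sexes. Copies with like names may share reads, and how such reads were divided between them was not tested. Larval cuticle protein A2B (gene1395) had 0.77, 0.82, 1.44 and 1.22 TPM at 5 d and 1172, 1389, 1276 and 1069 TPM at 9 d (log2 fold change 9.22 ± 0.54, adjusted P = 1.03e-18). A second gene of that name, gene732, was among the 3 most abundant genes of 9-d-old pupae, at 25603, 25194, 24307 and 22677 TPM against 13681, 16925, 15016 and 17155 TPM at 5 d. It did not pass the test (log2 fold change 0.64, adjusted P = 2.24e-01), although its libraries did not overlap. Its standard error, 0.44, rests on the spread in all stages and not on these ages alone.

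Among 40 genes named for larval cuticle, 5 rose and 4 fell, and among 30 named for pupal cuticle, 2 rose and 5 fell, beside 4.22% and 2.84% of all genes, with median log2 fold changes of 0.24 and -0.29. Only 1 pupal-named gene rose without replicate 3 or 4 of the 5-d-old pupae or without replicate 1, 2 or 4 of the 9-d-old pupae. The names follow the stage at which relatives were described in other insects, and these genes were read here in a pupa forming adult cuticle. Larval cuticle protein A3A (gene2191) fell from 1345 ± 31.5 to 119 ± 15.2 TPM and larval cuticle protein 8 (gene816) from 1118 ± 82.3 to 33.7 ± 15.6 TPM (log2 fold changes -3.50 and -5.17, adjusted P = 1.21e-19 and 1.89e-07). Larval cuticle protein 8-like gene820 moved the other way, from 14.5, 47.7, 12.99 and 26.2 TPM to 468, 483, 438 and 203 TPM (log2 fold change 4.03 ± 0.38, adjusted P = 2.31e-12), with replicate 4 of the 9-d-old pupae lowest of its group. Pupal cuticle protein Edg-78E-like genes gene7968 and gene1773 fell from 1381 and 1285 TPM to 40.8 and 224 TPM (log2 fold changes -5.09 and -2.53, adjusted P = 3.23e-19 and 9.85e-05). Pupal cuticle protein 36 (gene5669) fell from 95.7 to 0.207 TPM, while pupal cuticle protein C1B-like (gene8030) rose from 3.65 to 49.5 TPM (log2 fold changes -6.32 and 3.46, adjusted P = 1.11e-08 and 1.62e-04). The larval-named list held 1.68 to 1.999% of all TPM at 5 d and 2.46 to 2.83% at 9 d, most of it from gene732. The pupal-named list held 0.38 to 0.461% at 5 d and 0.0754 to 0.0995% at 9 d.

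**Figure D2:**
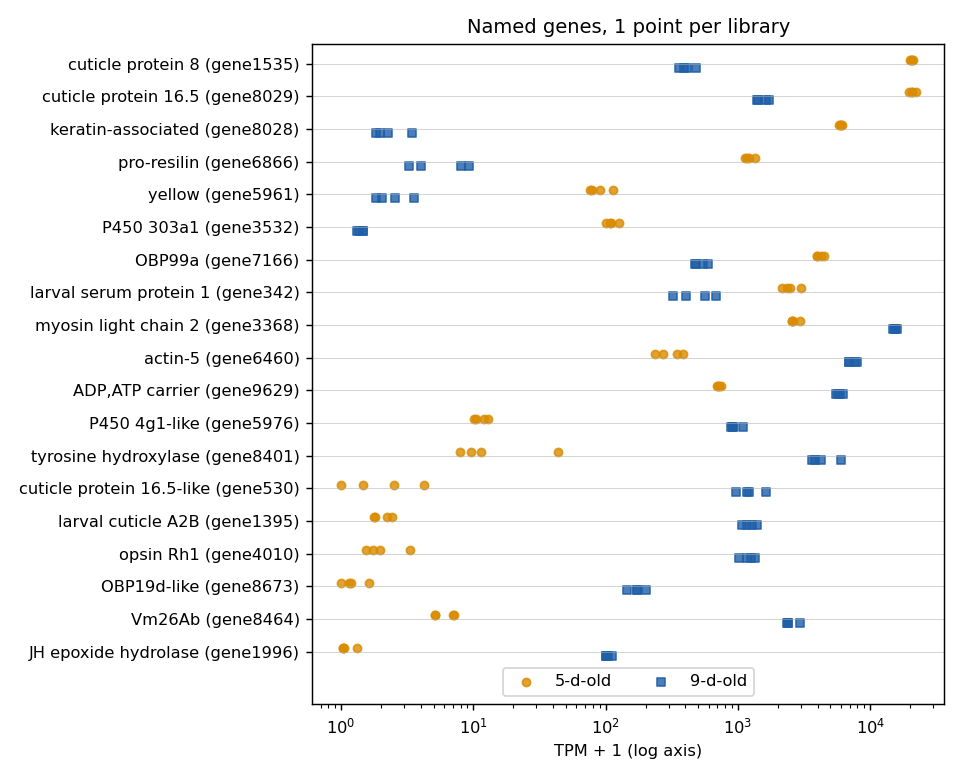
TPM + 1 on a log axis for 19 named genes, 1 point per library, circles for 5-d-old and squares for 9-d-old pupae (4 libraries each). In each of these genes the libraries of both ages lie apart, the upper 8 genes lower at 9 d and the lower 11 higher.

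The enzyme that starts tanning was among the 10 largest rises of genes with an informative product. Cuticle is hardened and darkened with catechols made from tyrosine, which tyrosine 3-monooxygenase, also called tyrosine hydroxylase, turns into DOPA before a decarboxylase makes dopamine and N-acetylation and laccase carry it to the cross-linking quinones. Tyrosine 3-monooxygenase (gene8401) stood at 10.5, 42.6, 8.54 and 6.97 TPM at 5 d and at 5987, 4214, 3627 and 3839 TPM at 9 d (log2 fold change 8.28 ± 0.35, adjusted P = 1.51e-23). Every 9-d-old library lay far above every 5-d-old one, with replicate 2 highest at 5 d and replicate 1 highest at 9 d. The gene was at 312 TPM in 1-d-old pupae and at 172 and 171 TPM in 1-d-old females and males. Dopamine N-acetyltransferase (gene11101) rose from 16.1 ± 1.38 to 163 ± 35.9 TPM and laccase-2-like (gene12789) from 2.07 ± 0.736 to 20.4 ± 2.63 TPM (log2 fold changes 3.24 and 2.82, adjusted P = 4.11e-25 and 1.63e-17). Laccase-5 (gene3243) fell from 273 ± 28.7 to 39.3 ± 3.81 TPM (log2 fold change -2.76 ± 0.47, adjusted P = 3.27e-06). The decarboxylase of the pathway, aromatic-L-amino-acid decarboxylase (gene10765, chosen after its values were seen), stood at 44.9 to 56.6 TPM at 5 d and 169 to 206 TPM at 9 d without overlap, just short of the fold threshold (log2 fold change 1.93 ± 0.22, adjusted P = 7.07e-10). Of 19 genes of tanning and melanin, 17 were tested, 3 rose and 1 fell, where 4.22% of all genes rose and 2.84% fell. The list's median log2 fold change was 0.09.

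Yellow proteins, secreted relatives of royal jelly proteins needed for dark melanin pattern in Drosophila, changed in both directions. Of 13 such genes, 2 rose and 4 fell, against 4.22% and 2.84% of all genes, with a median log2 fold change of -0.68. Protein yellow (gene5961) went from 78.2, 112, 75.7 and 89.1 TPM to 2.56, 1.58, 1.04 and 0.83 TPM (log2 fold change -5.20 ± 0.28, adjusted P = 5.83e-20). Major royal jelly protein 1-like (gene1118) went from 304 ± 6.77 to 16.5 ± 5.18 TPM and a second protein yellow (gene10937) from 59.7 ± 14.6 to 9.38 ± 1.80 TPM (log2 fold changes -4.17 and -2.53, adjusted P = 2.22e-18 and 4.57e-17). Protein yellow-like (gene9307) rose from 9.98 ± 3.02 to 80.7 ± 12.5 TPM (log2 fold change 2.92 ± 0.17, adjusted P = 7.86e-19). The ages did not overlap in any of these 4 genes, and different members stood high at 5 d and at 9 d.

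Enzymes of waterproofing lipids rose more often than they fell. Long-chain hydrocarbons that seal the cuticle are built by elongases, desaturases and fatty acyl-CoA reductases, and in Drosophila cytochrome P450 4G1 carries out their last step. Of 44 such genes, 16 rose and 4 fell, against 4.22% and 2.84% of all genes tested, and the median log2 fold change was 0.59. Cytochrome P450 4g1-like (gene5976) had 9.52, 11.97, 11.0 and 9.14 TPM at 5 d and 1094, 914, 918 and 891 TPM at 9 d (log2 fold change 6.39 ± 0.12, adjusted P = 1.56e-36), and its copy gene5975 rose from 34.4 ± 3.70 to 163 ± 15.7 TPM (log2 fold change 2.21, adjusted P = 5.95e-20). In adults of 1 d, gene5976 stood at 1396 TPM in females and 1302 TPM in males. Acyl-CoA Delta(11) desaturase (gene3132) rose from 93.4 ± 10.1 to 418 ± 40.6 TPM (log2 fold change 2.15 ± 0.39, adjusted P = 8.77e-06). The related cytochrome P450 4g15 (gene3866) and the putative fatty acyl-CoA reductase CG5065 copy gene10246 fell, from 157 ± 19.1 to 26.1 ± 2.96 TPM and from 679 ± 16.4 to 51.8 ± 2.98 TPM (log2 fold changes -2.54 and -3.69, adjusted P = 1.18e-16 and 3.19e-13). Among 21 genes of chitin synthesis, modification and breakdown, 1 rose and none fell, near or under the 4.22% and 2.84% of all genes. The risen gene, chitinase-like protein Idgf1 (gene8595), went from 16.3 ± 3.13 to 191 ± 21.6 TPM (log2 fold change 3.48 ± 0.19, adjusted P = 5.43e-20). At an adjusted P under 0.05 with any fold change, 10 of the 21 were lower, against 28.1% of all genes. In the short list of 11 proteins of bristle, hair and wing cell polarity, inturned (gene384) and prickle (gene3749) fell from 14.3 ± 0.208 to 2.17 ± 0.42 TPM and from 8.47 ± 0.899 to 1.26 ± 0.0603 TPM (log2 fold changes -2.28 and -2.06, adjusted P = 3.54e-17 and 1.30e-22). None of the 11 rose, and of all genes tested 2.84% fell and 4.22% rose. The fold change of prickle lay near the threshold, at -1.99 without replicate 2 of the 5-d-old pupae and -1.999 with median-of-ratios scaling, neither past it.

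Many genes of the contractile apparatus rose, and their transcripts made up a larger part of the whole-body RNA at 9 d. The sarcomere slides myosin thick filaments along actin thin filaments under the control of troponin and tropomyosin, and in flies the indirect flight muscles fill most of the adult thorax. Of 34 contractile proteins, 16 rose and 4 fell, against 4.22% and 2.84% of all genes, with a median log2 fold change of 1.92. At an adjusted P under 0.05 with any fold change, 25 were higher, against 25.0% of all genes. The list's sum was 1.65 to 1.81% of all TPM at 5 d and 8.94 to 9.81% at 9 d. Myosin regulatory light chain 2 (gene3368) had 2543, 2932, 2561 and 2599.8 TPM at 5 d and 15270.0, 15445, 15778 and 14759.6 TPM at 9 d (log2 fold change 2.53 ± 0.10, adjusted P = 1.54e-24). The muscle myosin heavy chain (gene11765) had 2323, 2331, 2100.4 and 2259.6 TPM and 12830.0, 12318, 13041 and 12481 TPM (log2 fold change 2.49 ± 0.16, adjusted P = 2.92e-17). Both genes were already high at 5 d, and the ages lay far apart. Myosin light chain alkali (gene3122) and troponin T (gene12425) rose from 1261 ± 59.3 to 8521 ± 389 TPM and from 1279.9 ± 60.4 to 7969 ± 365 TPM (log2 fold changes 2.76 and 2.64, adjusted P = 8.01e-23 and 2.19e-22).

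Among 5 actins, the 3 named muscle-specific rose and none fell, beside 4.22% and 2.84% of all genes. Actin-5 (gene6460) changed most, from 235, 348, 269.7 and 386 TPM to 7918, 6932, 6921 and 7699.6 TPM (log2 fold change 4.59 ± 0.26, adjusted P = 2.61e-19), followed by actin-2 (gene1908), from 574 ± 63.0 to 7955 ± 585 TPM, and actin-3 (gene5689), from 1445 ± 103 to 8191 ± 785 TPM (log2 fold changes 3.79 and 2.50, adjusted P = 2.79e-30 and 1.14e-16). The actin of the indirect flight muscle (gene2198, chosen after its values were seen) started higher than these, at 2912 to 3323 TPM, and stood at 8486 to 11373 TPM at 9 d, short of the fold threshold (log2 fold change 1.69 ± 0.32, adjusted P = 2.32e-05). The cytoplasmic actin A3a (gene4397, likewise chosen) stood at 1247, 1256, 1165 and 1120.5 TPM at 5 d and 1213, 1209, 1166 and 1009.6 TPM at 9 d, and the ages overlapped. Actin genes are alike in sequence and may share reads. In 1-d-old adults, actin-2 was lower again at 1597 TPM in females and 1214 TPM in males, while actin-5 stood at 5556 and 5609 TPM. In 3rd instar larvae actin-2 stood at 12913 TPM, above its 9-d-old pupal level, and actin-5 at 2.34 TPM.

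The 4 contractile genes that fell were all named titin or titin-like, and they were chosen for naming after their values were seen. Titin gene853 stood at 29.4 to 34.6 TPM at 5 d and 0.02 to 0.13 TPM at 9 d (log2 fold change -4.91 ± 0.69, adjusted P = 6.88e-08). The others, gene10216, gene7502 and gene8446, had log2 fold changes of -2.42, -2.67 and -2.45, and 2 of them varied more than 10-fold among the 5-d-old libraries, gene10216 with 0.91 to 17.1 TPM and gene7502 with 0.32 to 28.3 TPM. Without replicate 1 of the 5-d-old pupae gene7502 did not pass, at -1.97. Another titin chosen in the same way, gene10602, rose, with 16.9 to 19.5 TPM at 5 d and 88.7 to 101 TPM at 9 d (log2 fold change 2.36 ± 0.20, adjusted P = 2.07e-13). Titin is the name given to many large proteins with repeated domains, and the product names do not separate muscle members from others.

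Genes of mitochondrial energy supply were higher at 9 d nearly throughout, mostly by less than the fold threshold. Flight in flies runs on sugar and proline oxidised in the mitochondria of the flight muscle, with a glycerol phosphate shuttle between cytosol and mitochondrion. Of 75 subunits of oxidative phosphorylation, 69 were higher at an adjusted P under 0.05 with any fold change and 1 was lower, against 25.0% and 28.1% of all genes, and the median log2 fold change was 1.04. Their sum was 2.49 to 2.56% of all TPM at 5 d and 5.45 to 5.85% at 9 d. The only one past the fold threshold, where 3 passed without replicate 3 of the 5-d-old pupae, was cytochrome c-2 (gene10026), with 204, 213, 193 and 240.0 TPM at 5 d and 2396, 2619.5, 2471 and 2762 TPM at 9 d (log2 fold change 3.59 ± 0.13, adjusted P = 3.50e-26). Of 31 genes of flight muscle energy supply, 5 rose and none fell, where 4.22% of all genes rose and 2.84% fell. At any fold 24 were higher, and the list's median log2 fold change was 1.09. The ADP,ATP carrier protein (gene9629), which exchanges both nucleotides across the inner membrane, rose from 715 ± 22.3 to 5819.9 ± 294 TPM (log2 fold change 3.02 ± 0.08, adjusted P = 2.31e-31). Cytosolic glycerol-3-phosphate dehydrogenase (gene13010), a partner in the shuttle, rose from 42.9 ± 7.98 to 657 ± 80.5 TPM (log2 fold change 3.92 ± 0.11, adjusted P = 2.32e-30). Glycogen phosphorylase (gene8290) and 6-phosphofructokinase (gene6303) rose from 109 ± 9.49 to 644 ± 28.8 TPM and from 22.6 ± 0.998 to 163 ± 4.31 TPM (log2 fold changes 2.56 and 2.80, adjusted P = 3.45e-21 and 1.33e-26). Of these 31 genes, 9 were also among the genes higher in 1-d-old males than in females described below, as were 8 of the 75 subunits. The counts past the fold threshold in both lists were the same without replicate 2 of the 5-d-old pupae and without replicate 4 of the 9-d-old pupae.

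Cytosolic ribosomal proteins moved the other way and by a narrow margin. All 74 had a negative log2 fold change, from -1.09 to -0.26 with a median of -0.55, and 73 were lower at an adjusted P under 0.05 with any fold change, but none passed the fold threshold. Their sum was 14.8 to 16.0% of all TPM at 5 d and 9.89 to 10.9% at 9 d. TPM values add to the same total in each library, so that shares of abundant lists are not independent of each other. With median-of-ratios scaling, which sets the median gene to no change, the median over the ribosomal list was -0.46 and over the oxidative phosphorylation list 1.13. Of 45 proteasome subunits, 30 were higher and 2 lower at any fold, against 25.0% and 28.1% of all genes, and none passed the fold threshold (median log2 fold change 0.36).

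**Figure D3:**
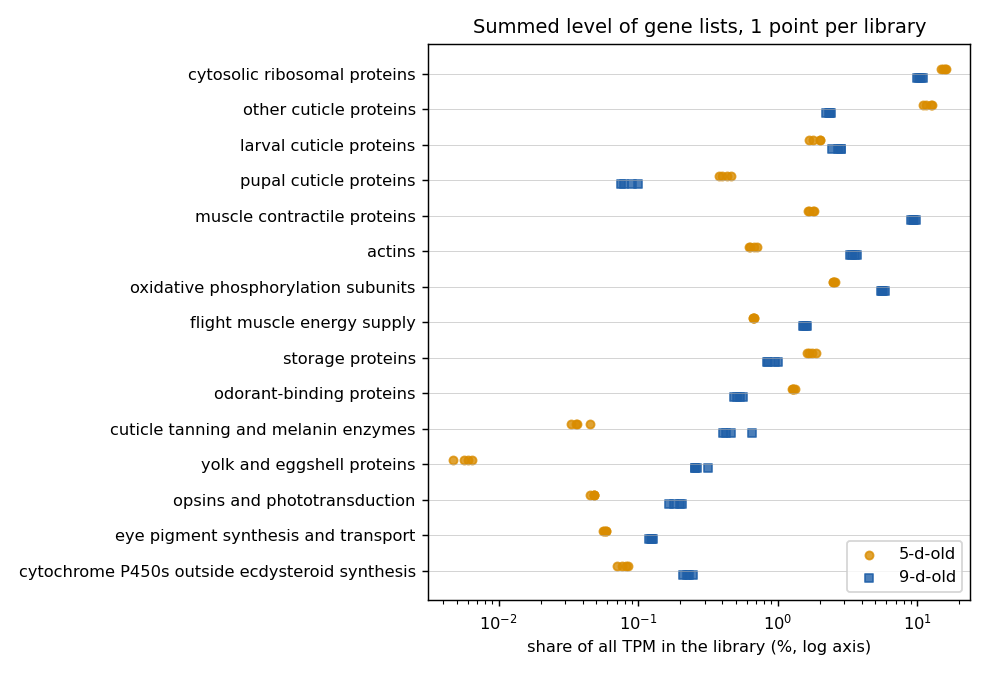
Summed TPM of 15 gene lists as a percentage of all TPM on a log axis, 1 point per library, circles for 5-d-old and squares for 9-d-old pupae. Contractile proteins, actins and oxidative phosphorylation hold larger shares in all 4 9-d-old libraries than in any 5-d-old library, and ribosomal, storage and most cuticle lists hold smaller ones.

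Regulators of the ecdysone cascade moved in both directions. The ecdysone receptor and ultraspiracle form the hormone receptor, E74, E75, E78 and the Broad complex are early targets, and FTZ-F1 is a nuclear receptor that in Drosophila is made when the hormone has fallen. Of 23 genes in this list, 2 rose and 3 fell, beside 4.22% and 2.84% of all genes, with a median log2 fold change of -0.18. FTZ-F1 (gene1101) had 1.68, 1.99, 2.02 and 2.25 TPM at 5 d and 69.4, 59.7, 64.3 and 62.3 TPM at 9 d (log2 fold change 4.44 ± 0.22, adjusted P = 6.65e-21). It was at 0.438 TPM in 1-d-old pupae and 1.15 and 1.23 TPM in 1-d-old females and males, so 9-d-old pupae stood alone among these 5 groups. Ecdysone-induced protein 74EF (gene5308) had 13.1, 13.1, 11.3 and 10.4 TPM at 5 d and 71.9, 82.7, 83.2 and 69.9 TPM at 9 d (log2 fold change 2.59 ± 0.28, adjusted P = 9.71e-11). Both groups were tight, and neither gene overlapped between the ages.

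The nuclear receptors E78C (gene1483), HR38 (gene13483) and E75B (gene0) fell. E78C had 72.1, 63.3, 67.7 and 62.7 TPM at 5 d and 5.53, 4.89, 3.34 and 3.73 TPM at 9 d (log2 fold change -3.67 ± 0.27, adjusted P = 2.00e-15). HR38, a partner of ultraspiracle in Drosophila, had 32.9, 37.7, 39.4 and 30.7 TPM and 2.13, 3.17, 3.02 and 2.34 TPM (log2 fold change -3.31 ± 0.15, adjusted P = 7.24e-23), and it was listed at 0 in 1-d-old pupae. E75B, a heme-binding receptor that represses HR3 in Drosophila, had 29.3, 28.6, 30.0 and 27.4 TPM and 4.45, 5.86, 6.47 and 4.31 TPM (log2 fold change -2.26 ± 0.20, adjusted P = 4.18e-13). All 3 were low in every 9-d-old library, and E75B and E78C had also been high at 1 d, at 46.7 and 50.4 TPM.

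The receptor itself stayed within the fold threshold. The ecdysone receptor (gene4707) stood at 13.6, 9.73, 22.9 and 16.5 TPM at 5 d and 19.0, 24.3, 17.3 and 34.0 TPM at 9 d, and ultraspiracle (gene8895) at 11.3, 11.2, 12.3 and 10.8 TPM and 8.64, 8.43, 9.42 and 8.06 TPM. Their log2 fold changes were 0.58 and -0.36 (adjusted P = 1.85e-02 and 3.14e-03), and the ages overlapped for the former only. The most abundant Broad complex gene (gene4395) was at 800.2, 721, 710.0 and 625 TPM at 5 d, 1063, 1042, 1276 and 1078 TPM at 9 d and 3789 TPM at 1 d, and in Drosophila Broad specifies the pupal stage. The probable nuclear hormone receptor HR3 (gene5893), which in Drosophila activates FTZ-F1, was at 43.0, 40.1, 39.2 and 43.9 TPM at 5 d and 3.39, 12.9, 47.4 and 19.9 TPM at 9 d, with 9-d-old libraries spread from far below the 5-d-old ones to just above them (log2 fold change -1.43 ± 0.60, adjusted P = 4.03e-02). Krueppel homolog 1 (gene12603), which relays juvenile hormone, was at or below 0.91 TPM on average at both ages and at 49.3 TPM in 1-d-old pupae. The remaining 13 genes, other copies of E74, Broad and the receptors HR78, HR96 and FTZ-F1 beta, did not pass, and their log2 fold changes lay between -0.81 (gene869, 74EF-like) and 0.88 (gene4253, Broad).

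**Figure D4:**
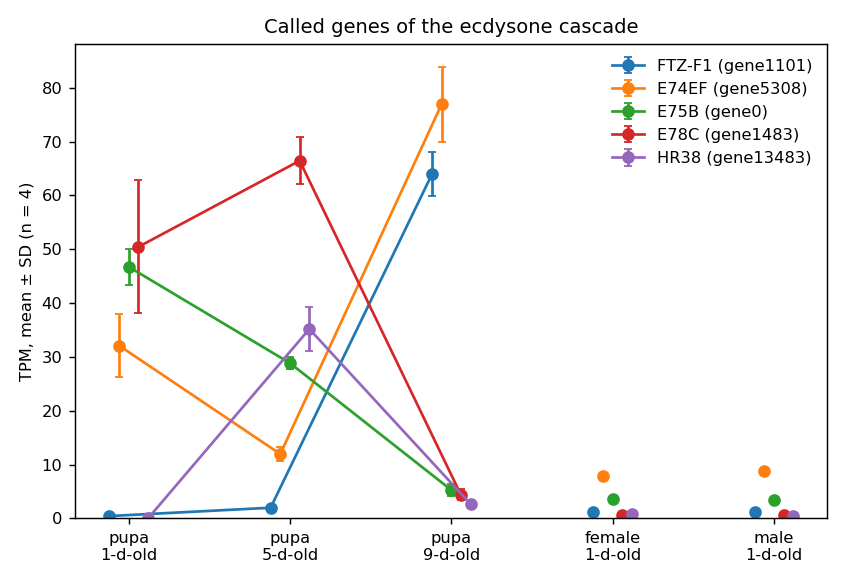
TPM (mean ± SD, n = 4 libraries) of the 5 called ecdysone-cascade genes in pupae of 1, 5 and 9 d, joined by lines, and in 1-d-old females and males. FTZ-F1 and E74EF peak in 9-d-old pupae, while E78C and HR38 are highest at 5 d and E75B at 1 d.

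Genes of ecdysteroid synthesis and turnover were low in whole bodies. Of the 6 genes, none passed both thresholds and 3 had an adjusted P under 0.05, where 25.0% of all genes were higher and 28.1% lower. Ecdysone 20-monooxygenase (gene117), which makes the active hormone, was at 1.05, 2, 1.42 and 1.01 TPM at 5 d and 7.02, 4.41, 6.11 and 3.86 TPM at 9 d (log2 fold change 1.41 ± 0.27, adjusted P = 1.87e-05). The synthesis enzyme cytochrome P450 306a1 (gene5569), known as Phantom in Drosophila, was at 2.07, 2.90, 1.99 and 2.65 TPM and 0.04, 0, 0.16 and 0.64 TPM (log2 fold change -1.51 ± 0.30, adjusted P = 4.84e-05). The ages were apart in both genes, as they were in cytochrome P450 307a1-like (gene9243), named Spook in Drosophila, with means of 1.3 and 0.357 TPM (log2 fold change -0.76, adjusted P = 2.12e-03). At such levels the added 1 TPM damps the fold change, and with a pseudocount of 0.1 TPM the fold change of gene5569 was -3.44. The other 3 genes, cytochrome P450s 302a1, 315a1 and 18a1, had adjusted P of 3.85e-01, 5.08e-01 and 6.23e-01 (gene4259, gene11123 and gene5568). Juvenile hormone epoxide hydrolase (gene1996), which breaks down juvenile hormone, rose from 0.04, 0.05, 0.31 and 0.04 TPM to 111, 99.2, 99.7 and 104 TPM (log2 fold change 6.56 ± 0.09, adjusted P = 4.39e-41). It was alone among the 4 genes of its list, where 4.22% of all genes rose and 2.84% fell.

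None of 16 neuropeptides and peptide receptors of eclosion and related functions passed both thresholds. An adjusted P under 0.05 was found for 4 of them, where 25.0% of all genes were higher and 28.1% lower. Their whole-body levels were mostly low. The highest was that of diuretic hormone receptor gene11832, at 56.1, 43.4, 18.0 and 11.3 TPM at 5 d and 21.4, 9.23, 0.74 and 23.2 TPM at 9 d, with overlap between the ages. Eclosion hormone (gene11836) was at 1.88, 0.86, 1.79 and 1.86 TPM at 5 d and 0.75, 1.80, 1.47 and 0.39 TPM at 9 d, against 28.1 TPM in 1-d-old pupae. Bursicon (gene10132), the tanning hormone, was at 7.82, 4.42, 5.35 and 7.67 TPM and 7.94, 7.14, 0.84 and 6.19 TPM, and its partner (gene6255) at 2.53, 2.57, 4.19 and 4.04 TPM and 1.35, 2.29, 1.96 and 0.61 TPM. The ages overlapped for eclosion hormone and bursicon, not for the partner (log2 fold change -0.79 ± 0.20, adjusted P = 8.07e-04). Allatostatin-A (gene3084) was higher at 9 d without overlap, 1.34, 2.61, 1.82 and 1.05 TPM against 7.21, 7.59, 6.17 and 6.65 TPM, under the fold threshold (log2 fold change 1.58 ± 0.17, adjusted P = 1.99e-10).

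Opsins rose from near absence, while the TRP channel and its scaffold were already present at 5 d. In fly photoreceptors, rhodopsin activates a phospholipase cascade that opens the TRP and TRPL channels, arrestins end the response, and chaoptin holds the light-sensing membranes together. Of 22 genes of this list, 6 rose and 2 fell, against 4.22% and 2.84% of all genes, with a median log2 fold change of 0.45. Opsin Rh1 (gene4010), the opsin of the outer photoreceptors in Drosophila, had 0.74, 2.30, 0.97 and 0.55 TPM at 5 d and 1161, 1246, 1021 and 1355 TPM at 9 d (log2 fold change 9.18 ± 0.19, adjusted P = 3.37e-35). Opsin Rh4 (gene5328), an ultraviolet opsin of inner photoreceptors there, had 0.93, 0.51, 0.65 and 0.89 TPM and 152, 172, 146 and 173 TPM (log2 fold change 6.54 ± 0.10, adjusted P = 3.17e-39). Opsin Rh6 (gene2193) had 0.1, 0.13, 0.2 and 0.05 TPM and 40.2, 40.4, 36.2 and 43.4 TPM (log2 fold change 5.19 ± 0.11, adjusted P = 5.97e-35), and it was the only one of these 3 with more than 2 TPM in 1-d-old pupae, at 15.9 TPM. In 1-d-old females they stood at 1771, 179 and 63.2 TPM, so that the 9-d-old level of Rh4 was close to the adult one and those of Rh1 and Rh6 were below it.

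Retinal degeneration B (gene11414), a lipid transfer protein of photoreceptors, rose from 5.47 ± 0.472 to 27.6 ± 2.75 TPM (log2 fold change 2.14 ± 0.18, adjusted P = 1.47e-13). Members of the cascade outside the naming rule were chosen after their values were seen. The TRPL channel (gene8642) rose, with 0.01 to 0.16 TPM at 5 d and 21.1 to 25.4 TPM at 9 d (log2 fold change 4.51 ± 0.14, adjusted P = 1.75e-28), whereas the TRP channel (gene7845) was already at 89.2 to 105 TPM at 5 d and at 65.1 to 83.5 TPM at 9 d. The scaffold protein INAD (gene12070) likewise stood at 19.6 to 24.1 TPM before and 36.8 to 47.3 TPM after, and chaoptin gene10568 fell, with 24.4 to 28.0 TPM at 5 d and 1.87 to 2.99 TPM at 9 d (log2 fold change -2.98 ± 0.16, adjusted P = 2.08e-20). Outside the list, the arrestins phosrestin-1 (gene4219) and phosrestin-2 (gene6565), rose from 19.7 ± 2.26 to 252 ± 11.1 TPM and from 21.8 ± 2.74 to 208 ± 23.8 TPM (log2 fold changes 3.62 and 3.19, adjusted P = 6.19e-30 and 2.68e-26). Phosrestins were thus present at 5 d, as TRP and INAD were, when TRPL and all 3 opsins were below 3 TPM.

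All genes of eye pigment that passed the test rose. Drosopterins are made from GTP and ommochromes from tryptophan, and the White transporter with its partners loads both into granules. Of 18 such genes, 5 rose and none fell, against 4.22% and 2.84% of all genes, and 12 were higher at any fold, against 25.0%, with a median log2 fold change of 1.32. GTP cyclohydrolase 1 (gene11285) had 14.5, 16.4, 12.5 and 15.2 TPM at 5 d and 114, 94.3, 102 and 122 TPM at 9 d (log2 fold change 2.80 ± 0.16, adjusted P = 9.12e-19). GTP cyclohydrolase 1-like (gene13714) rose from 47.4 ± 14.8 to 269 ± 23.8 TPM, sepiapterin reductase (gene4412) from 14.8 ± 3.40 to 77.9 ± 6.97 TPM and kynurenine formamidase (gene10923) from 1.89 ± 0.52 to 28.3 ± 2.80 TPM. Their log2 fold changes were 2.53, 2.34 and 3.35, with adjusted P of 2.56e-08, 1.71e-18 and 7.16e-19. The fifth, protein white (gene9019, chosen after its values were seen), rose from 3.18 ± 0.567 to 17.0 ± 0.732 TPM (log2 fold change 2.12 ± 0.13, adjusted P = 2.82e-18). The product of GTP cyclohydrolase also feeds the cofactor of tyrosine hydroxylase, and the lists do not separate these uses.

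Many odorant-binding proteins rose, and chemosensory receptors stood at low levels in the whole-body RNA. Odorant-binding proteins carry odorants through the sensillar fluid, and some members serve other tissues. Of 36 odorant-binding proteins, 12 rose and 3 fell, against 4.22% and 2.84% of all genes, with a median log2 fold change of 0.59. General odorant-binding protein 19d-like gene8674 had 27.1, 0.61, 1.12 and 1.73 TPM at 5 d, with replicate 1 far above the others, and 554, 329, 357 and 366 TPM at 9 d (log2 fold change 6.61 ± 0.40, adjusted P = 4.14e-18). General odorant-binding protein 56d-like (gene4980) had 12, 7.29, 12.6 and 7.61 TPM and 289, 323, 422 and 461 TPM (log2 fold change 5.12 ± 0.21, adjusted P = 6.79e-24). Their levels in 1-d-old females were 281 and 454 TPM, of the same order as in the 9-d-old pupa. In 3rd instar larvae gene8674 stood at 0.43 TPM and gene4980 at 1017 TPM, the latter above its pupal and adult levels quoted here. A further 19d-like copy, gene8673, chosen after its values were seen, rose, with 0 to 0.64 TPM at 5 d and 143 to 201 TPM at 9 d (log2 fold change 7.14 ± 0.12, adjusted P = 6.01e-39).

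The 3 that fell were all named 99a. General odorant-binding protein 99a gene7166 had 4427, 3986, 3983 and 4229.6 TPM at 5 d and 544, 479, 591 and 471 TPM at 9 d (log2 fold change -2.998 ± 0.45, adjusted P = 2.67e-07), and gene1140 had 374 ± 16.3 and 50.1 ± 5.56 TPM (log2 fold change -2.88 ± 0.30, adjusted P = 6.68e-11). The list's share of all TPM was 1.25 to 1.33% at 5 d and 0.484 to 0.559% at 9 d, lower although 12 of its members rose and 3 fell. Of 112 odorant, gustatory and ionotropic receptors and their partners, 72 passed the filter and 3 rose, near the 4.22% of all genes tested that rose. The odorant receptor coreceptor (gene6798), the shared partner of odorant receptors, had 0.09, 0, 0 and 0.05 TPM at 5 d and 2.53, 4.36, 2.73 and 3.37 TPM at 9 d (log2 fold change 2.02 ± 0.14, adjusted P = 6.89e-16). Sensory neuron membrane protein 1 (gene3920), a pheromone-sensing partner, had 0.32, 0.05, 0.18 and 0.4 TPM and 5.47, 5.66, 5.14 and 4.57 TPM (log2 fold change 2.33 ± 0.10, adjusted P = 5.20e-24), and sensory neuron membrane protein 2 (gene1705) rose from 0.752 ± 0.0896 to 36.7 ± 3.83 TPM (log2 fold change 4.42 ± 0.36, adjusted P = 4.12e-14). The 5-d-old libraries held under 1 TPM of each of the 3, and the coreceptor did not pass without replicate 2 or replicate 4 of the 9-d-old pupae, at 1.90 and 2.00.

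Some genes with product names of neuronal channels, receptors or synaptic vesicles rose. For channels and transmitter receptors the share that rose was near that of all genes. Of 77 ion channels and transmitter receptors, 76 were tested, 4 rose and none fell, and of 32 synaptic vesicle and release proteins 4 rose and none fell, where 4.22% of all genes tested rose and 2.84% fell, with median log2 fold changes of 0.16 and 0.36. Glutamate receptor ionotropic, kainate 2 (gene2433) had 1.07, 1.49, 1.39 and 1.22 TPM at 5 d and 41.1, 41.2, 50.8 and 43.7 TPM at 9 d (log2 fold change 4.30 ± 0.10, adjusted P = 5.20e-34). Synaptic vesicle glycoprotein 2A-like (gene1255), a membrane protein of synaptic vesicles in mammals, had 2.93, 2.55, 1.80 and 1.65 TPM and 50.9, 65.1, 60.3 and 46.0 TPM (log2 fold change 4.14 ± 0.15, adjusted P = 1.68e-26). In both genes the 9-d-old level was above that in 1-d-old females, at 17.5 and 29.8 TPM. The potassium channel Shab (gene1612) and the synaptic vesicle glycoprotein 2B-like copies gene1252 and gene9166 also rose, with log2 fold changes of 3.29, 3.31 and 3.46 (adjusted P = 7.20e-29, 2.19e-15 and 5.20e-24).

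Some storage proteins of the larval fat body fell. Larval serum proteins are hexamers laid down by the larva and used up in the pupa. Of 10 storage proteins, 2 fell and none rose, where 2.84% of all genes fell and 4.22% rose. The list's median log2 fold change was -1.32, and its share of all TPM was 1.62 to 1.89% at 5 d and 0.842 to 1.01% at 9 d. Without replicate 2 of the 5-d-old pupae, or without replicate 4 of the 9-d-old pupae, 3 fell. Larval serum protein 1 beta chain-like gene342 had 2360.1, 2162, 2992 and 2477 TPM at 5 d and 402, 567, 324 and 685 TPM at 9 d (log2 fold change -2.38 ± 0.51, adjusted P = 1.23e-04), and gene343 1446 ± 186 and 258 ± 78.9 TPM (log2 fold change -2.52 ± 0.42, adjusted P = 2.03e-06). Larval serum protein 2 (gene6969, chosen after its values were seen) stayed high, at 6913, 7021, 7369 and 5801 TPM and 5808, 5434, 7957 and 6115 TPM with overlap between the ages. It was the source of most of the list's TPM at 9 d. In 1-d-old pupae gene342, gene343 and gene6969 stood at 862, 684 and 1110 TPM, below their 5-d-old means. In 3rd instar larvae they stood at 20379, 32424 and 11821 TPM.

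A few genes named for yolk and eggshell rose. Of 26 such genes, 24 were tested, 4 rose and none fell, beside 4.22% and 2.84% of all genes, while the median log2 fold change was 0.05. The gene called vitelline membrane protein Vm26Ab (gene8464) had 5.97, 6.16, 4.09 and 4.14 TPM at 5 d and 2388, 2373, 2936 and 2351 TPM at 9 d (log2 fold change 8.70 ± 0.51, adjusted P = 1.42e-18), with replicate 3 highest at 9 d. In 1-d-old adults it stood at 5.50 TPM in females and 6.94 TPM in males, and in 3rd instar larvae at 231 TPM. Vitellogenin-1-like gene7398 was listed at 0 in all 4 5-d-old libraries and at 122, 76.5, 65.5 and 60.6 TPM at 9 d (adjusted P = 8.57e-30), and vitellogenin-2-like gene7412 and vitellogenin-3-like gene7407 rose from 0.5 ± 0.247 to 44.0 ± 3.83 TPM and from 0.547 ± 0.128 to 12.7 ± 1.66 TPM (log2 fold changes 4.92 and 3.15, adjusted P = 1.54e-32 and 2.11e-10). In 1-d-old adults gene7398, gene7412 and gene7407 stood at 6.27, 0.605 and 28.9 TPM in females and 3.52, 0.89 and 34.1 TPM in males. Yolk proteins of higher flies are relatives of lipases, and copies with like names may share reads. The 2 oocyte yolk and eggshell genes chorion protein S38 (gene4406) and the vitellogenin receptor (gene2859), chosen after their values were seen, were at or below 0.6 TPM on average at both ages.

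More genes named for digestive and detoxifying enzymes rose than fell. Of 97 trypsins and chymotrypsins 10 rose and 2 fell, of 91 other digestive enzymes 13 rose and 3 fell, of 89 cytochrome P450s 18 rose and 3 fell, and of 82 glutathione and UDP-sugar transferases and esterases 16 rose and 3 fell. Of all genes tested 4.22% rose and 2.84% fell, so the falls were near or under that share. Their median log2 fold changes were 0.14, 0.17, 0.73 and 0.65. Chymotrypsin-2 (gene2410) had 0.1, 0, 0 and 0.22 TPM at 5 d and 148, 136, 149 and 150.1 TPM at 9 d (log2 fold change 7.09 ± 0.09, adjusted P = 4.26e-42), and it was at 0.0925 TPM in 1-d-old females. Trypsin-1 gene8603 and carboxypeptidase B gene4905 rose from 18.3 ± 6.77 to 326 ± 56.7 TPM and from 0.515 ± 0.117 to 229 ± 35.9 TPM (log2 fold changes 4.16 and 7.24, adjusted P = 1.12e-08 and 3.09e-30), and they too were below 1 TPM in 1-d-old adults of both sexes. Maltase A1 (gene7009), a sugar-digesting enzyme, rose from 4.89 ± 3.77 to 107 ± 38.5 TPM (log2 fold change 4.39 ± 0.55, adjusted P = 5.96e-09) on the way to 1048 TPM in 1-d-old females. The lists thus held genes that were low again in 1-d-old adults and genes that were higher there. In 3rd instar larvae chymotrypsin-2, trypsin-1, carboxypeptidase B and maltase A1 stood at 0.0125, 0.055, 4.40 and 13.3 TPM. Zinc carboxypeptidase A 1-like (gene9573) fell from 356 ± 44.0 to 3.14 ± 0.8 TPM (log2 fold change -6.44 ± 0.36, adjusted P = 1.30e-19). Glutathione S-transferase S1 (gene6950), abundant in fly muscle, rose from 919.7 ± 69.4 to 3909 ± 444 TPM (log2 fold change 2.08 ± 0.13, adjusted P = 9.82e-18).

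Cytochrome P450 303a1 (gene3532, chosen after its values were seen), which in Drosophila is needed for bristles and eclosion, fell from 125, 107, 109 and 98.8 TPM to 0.36, 0.47, 0.32 and 0.46 TPM (log2 fold change -6.30 ± 0.11, adjusted P = 3.17e-38). Probable cytochrome P450 4s3 (gene11343) rose from 8.65 ± 2.08 to 115 ± 20.5 TPM (log2 fold change 3.60 ± 0.16, adjusted P = 1.17e-22). Takeout proteins, carriers of small hydrophobic molecules, shared a list with ejaculatory bulb proteins. Of its 14 genes, 2 rose and 4 fell, beside 4.22% and 2.84% of all genes. Protein takeout-like (gene6789) had 0.09, 0.35, 0 and 0 TPM at 5 d and 133, 118, 170.3 and 124 TPM at 9 d (log2 fold change 6.95 ± 0.12, adjusted P = 3.51e-38), while ejaculatory bulb-specific protein gene13480 and the takeout genes gene11623 and gene11628 fell, with log2 fold changes of -2.52, -2.52 and -5.08 (adjusted P = 1.04e-12, 9.63e-08 and 5.70e-11).

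Small heat shock proteins, which in flies also follow the developmental programme, changed in both directions. Of 23 heat shock proteins, 3 rose and 1 fell, beside 4.22% and 2.84% of all genes (median log2 fold change -0.53). Heat shock protein beta-1 (gene2963) had 162, 172, 183 and 178 TPM at 5 d and 1882, 1899.9, 1852 and 1250.2 TPM at 9 d, replicate 4 lowest at 9 d (log2 fold change 3.28 ± 0.15, adjusted P = 2.18e-22). Heat shock protein 27 copies gene1703 and gene1550 rose from 1.11 ± 0.654 to 39.5 ± 7.71 TPM and from 2.64 ± 0.227 to 25.7 ± 3.72 TPM, and heat shock protein 67B3 (gene1546) fell from 142 ± 7.96 to 14.5 ± 3.50 TPM. Their log2 fold changes were 4.30, 2.87 and -3.22 (adjusted P = 1.09e-18, 1.26e-14 and 3.90e-17).

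Among 71 serine proteases outside digestion, their inhibitors and serpins, 70 were tested, 3 rose (5 without replicate 1 of the 5-d-old pupae) and 7 fell. The rises were near the 4.22% of all genes that rose, and 2.84% of all genes fell. The largest changes in each direction were in Kunitz-type inhibitors. Kunitz-type proteinase inhibitor AXPI-II (gene4891) rose from 4.95, 10.7, 9.06 and 13.9 TPM to 730.0, 645, 561 and 651 TPM (log2 fold change 5.997 ± 0.21, adjusted P = 1.27e-26), while a second Kunitz-type inhibitor (gene8485) fell from 218 ± 34.9 to 2.81 ± 1.31 TPM (log2 fold change -5.90 ± 0.56, adjusted P = 3.96e-12). The extracellular matrix list gave 1 rise and 2 falls among 41 genes, near the 4.22% and 2.84% of all genes. Integrin alpha-PS2 (gene11413), which anchors muscle and joins wing surfaces in Drosophila, rose from 16.0 ± 1.93 to 74.5 ± 4.13 TPM (log2 fold change 2.16 ± 0.13, adjusted P = 1.96e-18), and laminin subunit alpha-1 (gene5782) and collagen alpha chain CG42342 (gene1263) fell, with log2 fold changes of -2.29 and -2.41 (adjusted P = 3.42e-26 and 3.33e-19).

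With limma, no gene passed both thresholds among 97 homeobox and segmentation genes, 69 genes of DNA replication and cell cycle, 44 of autophagy and apoptosis, 21 of germ line RNA control, 11 of insulin signalling and 9 of sex determination. Smaller changes were present. With an adjusted P under 0.05 at any fold, beside 25.0% higher and 28.1% lower of all genes, 15 homeobox and segmentation genes were higher and 21 lower, 6 cell cycle genes were higher and 29 lower, 11 autophagy and apoptosis genes were higher and 18 lower. In the other lists 7 germ line genes were higher and 7 lower, 3 insulin signalling genes were higher and 0 lower and 1 sex determination genes were higher and 3 lower. At an unadjusted P under 0.05, 17 homeobox and segmentation genes were higher and 24 lower, 11 cell cycle genes were higher and 34 lower, 12 autophagy and apoptosis genes were higher and 18 lower, and in the other lists 8 germ line genes higher and 8 lower, 3 insulin signalling genes higher and 0 lower, 1 sex determination genes higher and 3 lower. Of 7 histone genes 1 fell and none rose, and of 9 accessory gland proteins 1 rose and 1 fell. Of all genes tested 4.22% rose and 2.84% fell. The linker histone H1-like (gene12712) fell from 20.2 ± 6.17 to 3.86 ± 2.102 TPM (log2 fold change -2.18 ± 0.25, adjusted P = 3.73e-10). It did not pass without replicate 2 of the 5-d-old pupae or without replicate 3 of the 9-d-old pupae, at -1.99 in each case. Male accessory gland serine protease inhibitor-like gene4564 rose from 4.47 ± 4.32 to 41.0 ± 22.1 TPM (log2 fold change 3.05 ± 0.41, adjusted P = 3.17e-08). Its relative of the same name, gene2466, fell from 4.33 ± 2.83 to 0.163 ± 0.325 TPM (log2 fold change -2.02 ± 0.31, adjusted P = 4.58e-07). The latter was not called without replicate 1 or 4 of the 5-d-old pupae (-1.73 and -1.83) or without replicate 1, 3 or 4 of the 9-d-old pupae (-1.96 in each case).

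Genes that are higher in adult males differed between pools and set replicate 2 of the 5-d-old pupae and replicate 4 of the 9-d-old pupae apart. As a marker list, 773 genes (4.52% of those tested) were higher in 1-d-old males than in 1-d-old females and 20 (0.117%) were higher in females, by the same test. The median level of the 773 genes was 5.26, 0.28, 13.9 and 8.29 TPM in 5-d-old replicates 1 to 4 and 9.18, 9.43, 8.96 and 22.5 TPM in 9-d-old replicates 1 to 4. In 1-d-old males it was 17.9 to 20.4 TPM, in 1-d-old females 0 to 0.03 TPM and in 1-d-old pupae 0.05 to 0.20 TPM. The lowest 5-d-old library was thus near the 1-d-old pupae and the highest 9-d-old library above the males. The median of the 20 genes higher in females was 1.34, 0.57, 0.305 and 0.265 TPM at 5 d and 4.52, 4.53, 9.47 and 1.32 TPM at 9 d. The sex of the pooled pupae is not stated. Leaving out the 793 genes that differ between the sexes, 710 genes rose and 483 fell.

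**Figure D5:**
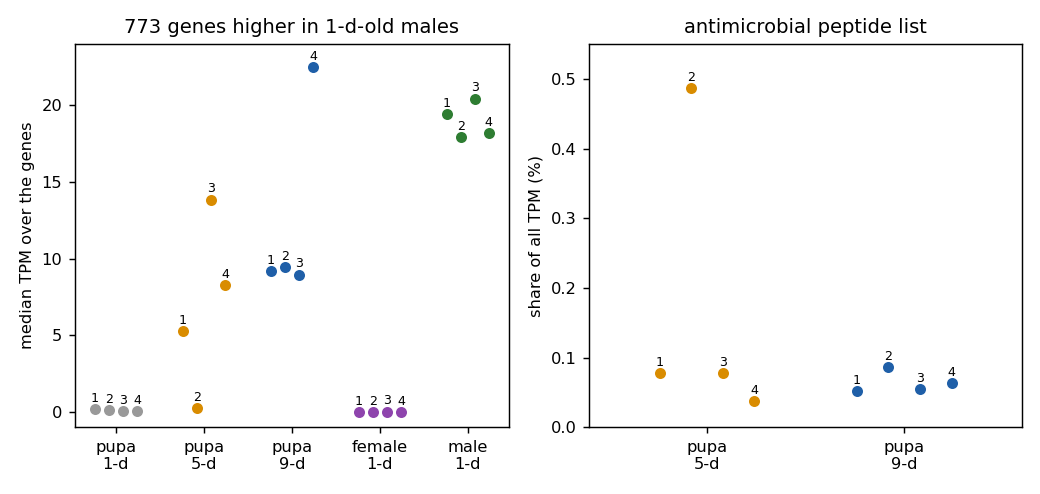
Left, median TPM over the 773 genes higher in 1-d-old males than in 1-d-old females, in each library of 5 groups, with the replicate number above each point. Right, summed TPM of the 26 antimicrobial peptide genes as a percentage of all TPM in the 8 pupal libraries. Replicate 2 of the 5-d-old pupae is lowest of its group on the left and highest on the right, and replicate 4 of the 9-d-old pupae is highest of its group on the left.

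Of the 773 genes, 9 rose and 1 fell, beside 4.22% and 2.84% of all genes. No overlap between the ages was seen for 22 of them, beside 18.9% higher and 24.3% lower of all genes. The median log2 fold change of the 773 was 1.10. Without replicate 2 of the 5-d-old pupae, 3 rose, none fell and the median was 0.41. The 51 genes of axoneme, sperm and testis followed the same pattern, with 0.0933, 0.021, 0.229 and 0.145% of all TPM at 5 d and 0.156, 0.166, 0.154 and 0.392% at 9 d. Of these 51, 32 were in the male list. Protamine-like (gene5345), a sperm chromatin protein, was the only one that rose, from 182, 2.62, 503 and 313 TPM to 326, 391, 314 and 954 TPM (log2 fold change 2.13 ± 0.65, adjusted P = 5.35e-03), with overlap between the ages. Without replicate 3 or 4 of the 5-d-old pupae 9 and 6 of the list rose. Protamine-like did not pass without replicate 2 of the 5-d-old pupae, at 0.53, or without replicate 4 of the 9-d-old pupae, at 1.76.

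Antimicrobial peptides were high in 1 library of 5-d-old pupae. The 26 genes, secreted against bacteria and fungi after the Toll and Imd pathways are triggered, summed to 0.0784, 0.487, 0.0777 and 0.0378% of all TPM at 5 d and to 0.0522 to 0.0868% at 9 d. Attacin-A-like gene4547, chosen after its values were seen, had 146, 942, 5.79 and 0.95 TPM at 5 d and 1.87, 61.3, 26.2 and 27.3 TPM at 9 d. Replicate 2, the library with the lowest level of the genes higher in males, was above all others. Of the list, 1 rose and 2 fell, where 4.22% of all genes rose and 2.84% fell. Those that fell were the defensins gene5877 (8.10, 154, 12.3 and 5.05 TPM and 1.14, 2.63, 2.97 and 0.83 TPM) and gene5881 (8.63, 56.7, 19.3 and 4.40 TPM and 0.6, 3.19, 3.30 and 0.76 TPM), with log2 fold changes of -2.74 and -2.56 (adjusted P = 9.28e-04 and 8.11e-03). Without replicate 2 neither passed, at -1.72 and -1.93, and 4, 4 and 12 genes of the list fell without replicate 1, 3 or 4 of the 5-d-old pupae. The gene that rose, holotricin-3-like (gene12112), did so in every library, from 3.89, 2.74, 0.96 and 0.78 TPM to 287, 391, 264 and 249.7 TPM (log2 fold change 6.70 ± 0.28, adjusted P = 1.32e-23). Of 28 peptidoglycan recognition proteins and lysozymes, 1 rose and 1 fell, near the 4.22% and 2.84% of all genes. Lysozyme-like (gene11692) rose from 128 ± 24.2 to 945 ± 117 TPM and putative lysozyme-like protein (gene9133) fell from 93.9 ± 16.5 to 10.3 ± 2.05 TPM (log2 fold changes 2.89 and -3.07, adjusted P = 2.40e-15 and 1.01e-06).

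The levels of the changed genes in other stages are given as a description, without a test. Of the 722 risen genes, 296 had their highest mean of all 13 stages in 9-d-old pupae, 117 in 9-d-old males and 70 in 5-d-old males. A group of 200 stood below 0.25 of their 9-d-old pupal mean in 1-d-old adults of both sexes, among them FTZ-F1, Vm26Ab and the cuticle protein 16.5-like copies, while 68 stood above 4 times that mean in at least 1 sex, maltase A1 among them. Of the 486 fallen genes, 283 were highest in 5-d-old pupae, 71 in 1st instar larvae and 67 in 1-d-old pupae. The stage that a gene was called high in was one of the stages compared, so these shares favour it.

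Some changed genes were neighbours. Of the gene names in the table, 11472 of 13747 were found in RefSeq assembly idZeuCucr1.2, which is used here for gene order only, and 10926 tested genes were placed, 929 of them called. In that order, 3 runs of at least 4 neighbouring genes rose and 3 runs fell. One run of 5 risen genes held neuropeptide-like 4 genes gene534 and gene533 and the cuticle protein 16.5-like copies gene531, gene530 and gene529. Both neuropeptide-like 4 genes were listed at 0 in all 4 5-d-old libraries, and at 9 d gene533 stood at 364, 445, 544 and 409 TPM and gene534 at 31.9, 38.3, 91.5 and 38.8 TPM (adjusted P = 7.08e-10 and 1.91e-07). A run of 4 fallen genes held calphotin (gene8026), gene8027 of unknown function, keratin-associated protein 19-2 (gene8028) and cuticle protein 16.5 (gene8029), so that copies of the 16.5 name changed in opposite directions at different places. Both runs were chosen after their values were seen.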

How the data were processed

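Poly(A) RNA, selected from total RNA of whole bodies, was sequenced by the authors, and 1 table of TPM for 18241 genes in 52 libraries was deposited, 4481 of the genes newly assembled and without a product name. Per the submitters' processing notes, HISAT2 2.1.0 and RSEM 1.3.1 were used, and the genome build is not given in the sources used here. The deposited TPM add to the same total in each library and keep no read depth, so no count test was run and no counting interval is given. The table holds no column of the authors' own comparisons.

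TPM were turned into log2(TPM + 1), genes above 0.1 TPM in at least 4 libraries were kept (17097), and a mean per stage was fitted to all 52 libraries at once with limma 3.58.1 (trend and robust empirical Bayes, R 4.3.3). The contrast was 9-d-old minus 5-d-old pupae, with Benjamini-Hochberg adjustment over all genes tested and genes were called where the adjusted P was under 0.05 and the log2 fold change was past 2 in size. The replicates are labelled biological but no source says how pools were drawn. The P-values of limma therefore measure the spread between libraries of the same stage, taken over all 13 stages. Single values per library were compared with exact two-sided permutation tests (scipy 1.17.1). The fit was tested on simulated data.

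Genes were named by a rule. It took the 10 largest rises and falls with a mean of at least 10 TPM, no overlap between the ages and an informative product, the 4 called members of highest TPM in each of 45 lists built on product names, all members of the ecdysone, ecdysteroid and eclosion neuropeptide lists, and the 3 most abundant genes of each age. Genes outside it are marked in the text as chosen after their values were seen. The comparison and the lists were chosen with earlier results of these data known. Gene order came from RefSeq assembly idZeuCucr1.2. No 2 libraries held identical values. Alternatives changed the pseudocount, filter, scaling, fold threshold, samples in the fit and replicate block, and left out each library in turn.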

Additional observations from a re-analysis of the deposited data

Results flagged for a closer look

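Over the genes named, the lists and the library measures, 448 groups of 4 libraries were examined for a highest or lowest library far from the other 3 (a gap above Dixon's critical value for 4 samples), and 44 showed one. Chance gives about 1 in 20 groups. Groups of mostly 0 values can give one by a single low value. Replicate 2 of the 5-d-old pupae was the library set apart in 11 of these, replicate 4 of the 9-d-old pupae in 9 and replicate 3 of the 9-d-old pupae in 8, and each other library in 1 to 5.

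Replicate 2 of the 5-d-old pupae stood highest for the antimicrobial peptide list, at 0.487% of all TPM, and for attacin-A-like gene4547 (942 TPM), defensin gene5877 (154 TPM), tyrosine 3-monooxygenase gene8401 (42.6 TPM), chymotrypsin inhibitor-like gene12860 (51.5 TPM), myosin regulatory light chain 2 gene3368 (2932 TPM), prickle gene3749 (9.81 TPM), vitellogenin-2-like gene7412 (0.87 TPM) and the TRPL channel gene8642 (0.16 TPM). It stood lowest for histones, at 0.0991% of all TPM, and for eclosion hormone gene11836, at 0.86 TPM. In most of these genes the shift is small beside the difference between the ages, and for the defensins it decides the call.

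Replicate 4 of the 9-d-old pupae stood highest for the genes higher in 1-d-old males, with a median of 22.5 TPM and 4.52% of all TPM, for the axoneme, sperm and testis list (0.392%), germ line RNA regulators (0.0661%), DNA replication and cell cycle (0.0738%) and protamine-like gene5345 (954 TPM). It stood lowest for heat shock protein beta-1 gene2963 (1250.2 TPM), larval cuticle protein 8-like gene820 (203 TPM) and titin gene10602 (88.7 TPM). Replicate 3 of the 9-d-old pupae stood highest for the insulin list (0.0392%), the yolk and eggshell list (0.315%), peptidoglycan recognition proteins and lysozymes (0.224%), Broad gene4395 (1276 TPM), neuropeptide-like 4 gene534 (91.5 TPM), Vm26Ab gene8464 (2936 TPM) and gene8027 (0.24 TPM), and lowest for retinal degeneration B gene11414 (23.5 TPM).

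In replicate 1 of the 5-d-old pupae, odorant-binding protein gene8674 (27.1 TPM), mantle protein gene5252 (2910.1 TPM) and accessory gland inhibitor gene4564 (10.9 TPM) were highest, and the opsin list (0.045%) and trypsin-1 gene8603 (8.27 TPM) lowest. In replicate 3 of that age, juvenile hormone epoxide hydrolase gene1996 was highest, at 0.31 TPM. In replicate 4, the 10 most abundant genes held 17.1% of all TPM, the highest of the 4, and trypsins and chymotrypsins 0.0337%, the lowest. In replicate 1 of the 9-d-old pupae, the fatty acid enzyme list (0.320%), cytochrome P450 4g1-like gene5976 (1094 TPM) and gene8674 (554 TPM) were highest. In replicate 2 of that age, gene8009 (0.59 TPM), chorion protein S38 gene4406 (0.09 TPM) and gene2466 (0.65 TPM) were highest, and gene8465 (18815 TPM) and chymotrypsin-2 gene2410 (136 TPM) lowest.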

How the results depend on the processing

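The 722 risen and 486 fallen genes became 1233 and 944 with a pseudocount of 0.1 TPM and 2141 and 1496 with a log2 fold threshold of 1. In the other settings the counts lay within 1.5 times these, with 724 and 488 without a filter, 709 and 475 with a filter at 1 TPM, 767 and 451 with median-of-ratios scaling, and 708 and 472 or 710 and 468 with fits on the 8 or the 12 pupal libraries. Leaving out each library in turn gave 719 to 854 risen and 470 to 523 fallen genes, of which 687 to 699 and 449 to 474 were the same genes. No gene was called in the opposite direction in any of these 16 settings. Of 150 named genes with a printed fold change, 136 kept their side of the thresholds in all settings. The difference in genes detected turned to -55.4 without replicate 2 of the 5-d-old pupae, and that of the median gene to -0.158 TPM without that library and -0.0167 TPM without replicate 4 of the 9-d-old pupae, over a range of -55.4 to 152 genes and -0.158 to 0.225 TPM. The cause was not tested.

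Replicate numbers are shared by both ages, but the labels do not say that a number marks a shared batch. Deviations from the group mean of samples with the same number correlated at -0.07, 0.16, -0.13 and 0.17, and 2 of 4 numbers correlated best with their own. With the replicate block, 702 genes rose and 469 fell, of which 699 and 467 were the same genes. The block took protamine-like (gene5345) and titin-like gene7502 out of the calls. TPM keep no depth, so differences at low levels may be within counting error.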

Other observations

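Of the 5 most abundant genes of 9-d-old pupae, 2 had been low at 5 d, both of unknown function and chosen here after their values were seen. One, gene5066, had 7.50, 5.30, 2.66 and 5.59 TPM at 5 d and 27265, 20624, 18964 and 21328 TPM at 9 d (log2 fold change 11.83 ± 0.35, adjusted P = 5.44e-29), and gene8465 had 65.2, 54.6, 73.0 and 65.1 TPM and 21017, 18815, 21038 and 21066 TPM (log2 fold change 8.29 ± 0.38, adjusted P = 1.61e-22). In 1-d-old adults gene5066 stood at 196 TPM in females and 161 TPM in males, and gene8465 at 29.6 and 26.7 TPM. Further such genes were chosen in the same way. Among them, gene8120 had 0.49 to 1.14 TPM at 5 d and 2981 to 5197 TPM at 9 d (log2 fold change 11.23 ± 0.33, adjusted P = 3.26e-29). On the falling side, gene8460 had 7413 to 8199 TPM at 5 d and 11.2 to 19.9 TPM at 9 d, and gene5354 had 1777 to 1952 TPM and 1 to 2.44 TPM (log2 fold changes -8.95 and -9.63, adjusted P = 1.29e-21 and 7.54e-35). The most abundant gene at both ages, gene13748, carries no product name and stood at 20420.4 to 24143 TPM and 25742 to 28214 TPM, and gene13752, also without a name, was second at 9 d.

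Genes of calcium handling and of muscle support outside the lists also rose, again chosen after their values were seen. The sarcoplasmic calcium pump (gene7106) went from 216 ± 12.5 to 2625 ± 210.0 TPM, sarcalumenin (gene11662), a calcium store protein of the same membrane, from 24.1 ± 3.62 to 541 ± 55.2 TPM and myophilin (gene2294) from 76.6 ± 9.46 to 1849.8 ± 151 TPM (log2 fold changes 3.59, 4.44 and 4.58, adjusted P = 3.27e-32, 8.16e-28 and 1.59e-25). The mitochondrial phosphate carrier (gene9087) went from 31.0 ± 5.06 to 1849 ± 144 TPM (log2 fold change 5.86 ± 0.34, adjusted P = 6.34e-19). Tubulin beta-3 chain (gene9725), which in Drosophila marks developing muscle and other differentiating cells, fell from 412 ± 82.9 to 33.8 ± 4.56 TPM (log2 fold change -3.56 ± 0.14, adjusted P = 3.47e-24), and catalase (gene10400) fell from 1102 ± 92.1 to 173 ± 26.7 TPM (log2 fold change -2.67 ± 0.17, adjusted P = 7.66e-18). Of the remaining genes named by the rule, the gene called major prion protein-like (gene1149) was listed at 0 in all 4 5-d-old libraries and stood at 891, 889, 1136 and 1223 TPM at 9 d, and chymotrypsin inhibitor-like (gene12860) went from 7.05, 51.5, 7.55 and 5.40 TPM to 2501, 2214, 2629 and 2356 TPM (log2 fold change 7.62 ± 0.38, adjusted P = 3.26e-21), replicate 2 highest at 5 d.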
